A study of Mus musculus with 2 samples.

Results

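The genes of calcium stores, calcium pumps and calcium sensors were followed in 2 libraries of messenger RNA from mouse small-intestinal organoids, which are gut epithelium grown from isolated crypts in a gel matrix. They were chosen by name, as every gene row whose symbol belongs to the IP3 and ryanodine receptors, the calcium pumps, the Stim and Orai genes, the mitochondrial uniporter, the calmodulins and their kinases, calcineurin and its partners, the calbindins, the neuronal calcium sensors, the S100 proteins or the annexins. This took 105 of 23532 genes with an estimate in both libraries. The organoids came from the ChgA-GFP strain, in which chromogranin A drives a green fluorescent protein, and were kept in medium with epidermal growth factor, noggin and R-spondin. Both fractions were sorted by fluorescence from the same kind of dissociated culture: the GFP+ library holds the roughly 1% of cells with fluorescence, and the GFP- library holds the remaining cells. How many animals were used, and their age, was not given in the sources used here. The cultures carry epithelium without nerve, muscle or blood supply, and the gate selects cells by activity of a single gene, so that the GFP+ library stands for chromogranin A reporter cells and not for any one cell type as such.

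In many secretory cells, receptors that activate phospholipase C raise IP3, which opens channels in the endoplasmic reticulum and releases stored calcium. Pumps return the ion to the stores or expel it, Stim proteins sense an empty store and open Orai channels in the cell surface, and EF-hand proteins such as calmodulin pass the signal on to kinases, to the phosphatase calcineurin and to the release machinery. Enterochromaffin cells, the serotonin-producing cells of the gut lining, release their granules when cytosolic calcium goes up.

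Levels are in FPKM (fragments per kilobase of transcript, corrected for library size), so levels of different genes are compared per length. Differences are log2((FPKM + 1) in GFP+ / (FPKM + 1) in GFP-), and a difference of at least 2 on this scale is called 4-fold here. With 1 library per fraction there is no replicate spread and no test, and each statement describes these 2 libraries. In bulk RNA, fewer cells of a type and less RNA per cell cannot be told apart. The deposited lower confidence bound is 0 in both libraries for all 105 genes, so the deposited intervals overlap for every gene with a value in both libraries. From steps in the low values, 1 FPKM of a 500-base transcript, close to the length of an S100 message, stands for about 29.5 fragments in GFP- and 29.9 in GFP+.

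The markers were first read as a check of the labels. Each of the 5 enterochromaffin markers that had an estimate was at least 4-fold higher in GFP+, with summed levels of 4841 FPKM against 112; *Chga* and *Chgb* had no estimate in GFP+. As deposited, markers of other epithelial lineages were lower in sum but not absent. For the goblet cell genes the sign of the difference in sum depends on how the libraries are scaled. Their median difference was -0.22, with *Muc2* and *Fcgbp* above 0, at 0.35 and 0.31. The 6 Paneth cell genes summed to 732 against 12075 FPKM, the 7 enterocyte genes to 1595 against 3627 FPKM, the 6 goblet cell genes to 1215 against 1630 FPKM, the 6 tuft cell genes to 5.42 against 18.0 FPKM, and the 5 stem and dividing cell genes to 273 against 1055 FPKM. The 10 markers of fibroblasts, endothelium, blood, muscle and glia summed to 17.0 FPKM in GFP+ versus 0.967 in GFP-. Most of this came from the endothelial gene *Pecam1* at 10.4 against 0.187 FPKM. None of the 10 was listed at 0 in GFP+, but only 4 reached 1 FPKM in either library, and 1 was at least 4-fold higher. The part of these cells in the differences below was not tested.

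In these 2 libraries a larger share of the calcium genes than of all genes compared was at least 4-fold higher in GFP+. Of the 105 genes, 66 reached 1 FPKM in at least 1 library, and 15 of these were at least 4-fold higher in GFP+, while 3 were at least 4-fold lower. The percentage over all 11868 genes compared was 7.09% higher and 4.59% lower (11.7% in either direction), against 22.7% and 4.55% of the calcium genes. The median difference was 0.70 for the calcium genes and -0.12 for all genes compared. Values under 1 FPKM were listed for 9 of the 66 in GFP- and for 4 in GFP+, so that the filter alone fixed the sign of their difference. The 9 were *Itpr1*, *Itpr2*, *Micu3*, *Camk2n1*, *Camk2n2*, *Rcan2*, *Nfatc2*, *Hpca* and *S100pbp*. The 4 were *Cabp1*, *S100a5*, *S100z* and *Anxa9*. Among the 53 calcium genes that reached 1 FPKM in each library, 12 were at least 4-fold higher and 3 lower, against 4.27% and 5.12% of the 10199 such genes in all, and the medians were 0.26 and -0.24. For genes that reached 10 FPKM in each library, the median log2 ratio was -0.50. With that median set to 0, 21 calcium genes were higher and 2 lower (10.8% and 1.51% of all genes compared), and with both libraries rescaled to one total, 21 and 2 (11.2% and 1.08%).

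**Figure D1:**
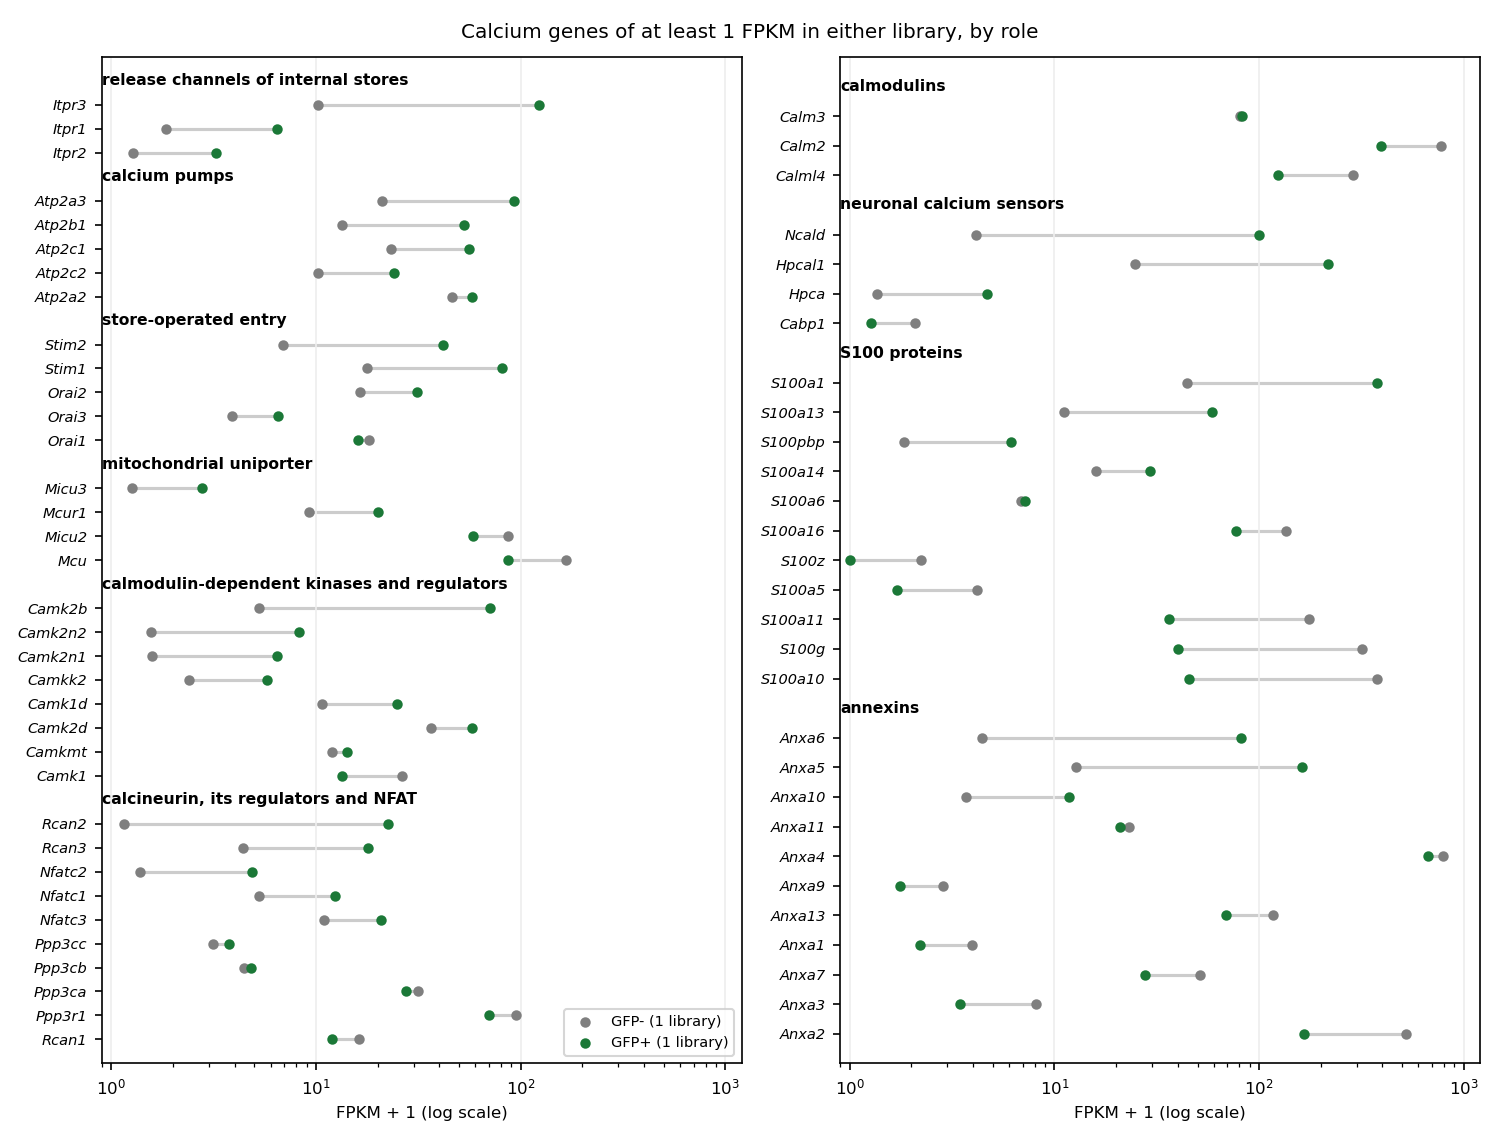
FPKM + 1 on a log axis for 64 of the 66 calcium genes that reached 1 FPKM, grouped by role; grey points are the GFP- library, green points the GFP+ library, and a line joins the 2 values of a gene. The longest lines to the right belong to *Ncald*, *Rcan2*, *Anxa6* and *Camk2b*, and the longest to the left to *S100a10* and *S100g*.

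The channels that release calcium from the endoplasmic reticulum were represented by *Itpr3*. This IP3 receptor gene (chromosome 17, 27057304 to 27122223, mm10, as listed in the files, in a row joined with the microRNA gene *Mir7677*) measured 122 FPKM in GFP+ versus 9.23 in GFP-, 13.3 times as much, which is a log2 difference of 3.59. The other two IP3 receptor genes were at lower levels in both libraries. *Itpr1* was at 5.48 against 0.840 FPKM and *Itpr2* at 2.25 against 0.270 FPKM, with differences of 1.82 and 1.35, and *Itpr1* passed the 4-fold size under both other scalings. Both genes passed the filter through GFP+ alone, which fixed the sign. *Itpr3* held 94.1% of the summed IP3 receptor FPKM in GFP+ and 89.3% in GFP-, so the makeup of the family was alike while its sum was 12.6 times as high. Shares within a family do not depend on how the libraries are scaled. The ryanodine receptors, the other class of store channels, best known from muscle and neurons, were at 0.0404 FPKM or less in both libraries, the highest value being that of *Ryr3* in GFP+.

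All 5 pump genes of at least 1 FPKM were above 0, and 1 of them passed the 4-fold size. Over all genes compared, 5486 of 11868 were above 0 and 7.09% were at least 4-fold higher. *Atp2a3*, a SERCA pump that fills the endoplasmic reticulum (chromosome 11, 72961169 to 72993043), measured 91.5 FPKM in GFP+ versus 20.0 in GFP-, a difference of 2.14 that missed the size with a pseudocount of 5, at 1.95. *Atp2a2*, the widely expressed SERCA pump, was at 56.7 against 45.0 FPKM, a difference of 0.33. The more abundant of the pair thus was *Atp2a2* in GFP-, where it held 69.2% of SERCA FPKM, and *Atp2a3* in GFP+, where it held 61.8%. *Atp2b1*, which expels calcium across the plasma membrane, was at 52.0 against 12.5 FPKM; its ratio was 4.17 and its difference of 1.98 fell short of the size with a pseudocount of 1, but reached 2.47 and 2.57 under the other scalings. It held 98.6% of plasma membrane pump FPKM in GFP+ and 99.8% in GFP-, and *Atp2b2*, *Atp2b3* and *Atp2b4* stayed at 0.387 FPKM or less. The Golgi pumps *Atp2c1* and *Atp2c2*, which load calcium and manganese into the secretory pathway, had 54.6 against 22.2 FPKM and 23.0 against 9.21 FPKM. Their differences of 1.26 and 1.23 were close to each other, and *Atp2c1* held 70.3% of their sum in GFP+ and 70.6% in GFP-. *Atp2a1*, the fast muscle SERCA pump, was at 0.00990 and 0.0347 FPKM.

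In store-operated entry, the sensors differed more than the channels. *Stim1* (chromosome 7, 102267824 to 102436855) stood at 79.8 FPKM in GFP+ versus 16.8 in GFP-, and *Stim2* (chromosome 5, 53998523 to 54121057), which responds to smaller losses of store calcium, at 40.8 against 5.89 FPKM. Both passed the 4-fold size, at 2.18 and 2.60, and *Stim1* missed it with a pseudocount of 5. The Orai genes, which encode the channel pore, lay between the thresholds. *Orai2* was at 30.2 against 15.5 FPKM, *Orai3* at 5.52 against 2.89 FPKM, and *Orai1* at 15.0 against 17.1 FPKM, a difference of -0.17 that turned above 0 under both other scalings. *Orai1* was the most abundant Orai gene in GFP-, with 48.2% of the family, and *Orai2* in GFP+, with 59.5%. The level of *Stim1* was 0.986 times that of *Orai1* in GFP- and 5.31 times in GFP+, again free of the library scaling.

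Because *Itpr3*, *Stim1* and *Stim2* lie on different chromosomes and were all at least 4-fold higher, the bases before their RefSeq start sites are shown. Each line gives the 250 bases upstream of the start, on the gene's own strand (GRCm38.p6, the same assembly as mm10; RefSeq), with the GC box (GGGCGG, or CCGCCC on the other strand) in capitals. *Itpr3* is read from chr17:27057054-27057303, *Stim1* from chr7:102267569-102267818 and *Stim2* from chr5:53998273-53998522, all on the plus strand.
Itpr3: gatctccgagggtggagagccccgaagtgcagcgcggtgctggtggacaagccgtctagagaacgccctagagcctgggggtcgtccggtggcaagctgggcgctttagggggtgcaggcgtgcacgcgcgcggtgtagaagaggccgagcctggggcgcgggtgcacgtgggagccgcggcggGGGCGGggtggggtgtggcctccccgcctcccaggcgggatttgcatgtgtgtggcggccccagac
Stim1: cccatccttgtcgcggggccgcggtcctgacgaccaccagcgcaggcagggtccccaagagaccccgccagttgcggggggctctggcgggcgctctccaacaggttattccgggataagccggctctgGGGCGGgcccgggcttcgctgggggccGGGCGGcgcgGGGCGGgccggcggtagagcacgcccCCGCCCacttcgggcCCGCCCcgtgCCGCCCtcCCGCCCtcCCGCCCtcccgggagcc
Stim2: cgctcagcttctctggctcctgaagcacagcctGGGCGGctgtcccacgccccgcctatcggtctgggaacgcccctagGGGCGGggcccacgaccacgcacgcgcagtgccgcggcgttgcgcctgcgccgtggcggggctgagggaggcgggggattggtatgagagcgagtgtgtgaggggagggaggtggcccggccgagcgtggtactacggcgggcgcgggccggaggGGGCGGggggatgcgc

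The 3 windows hold 1, 8 and 3 GC boxes and are 72.0%, 78.4% and 74.8% G or C, against a median of 52.4% over all 32851 promoters of the table. None holds a TATA box (TATAAA), an E-box of the form that NeuroD factors bind (CAGATG) or the core of an NFAT site (GGAAAA), each searched on both strands. Over all promoters, 32.7% hold the GC box, 12.4% the TATA box, 14.4% that E-box and 20.4% the NFAT core. Promoters were listed for 77 of the 105 calcium genes, 12 of them among the 15 that were at least 4-fold higher. In any window of those 12 genes, the GC box was found for 8, the NFAT core for 3, and the TATA box and the E-box for 0. Counted the same way, the GC box was found for 46 of the 77 calcium genes and the NFAT core for 17, or 59.7% and 22.1%, and for 35.4% and 22.9% of all 27025 genes in the table. These matches describe letters only.

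The genes of the mitochondrial uniporter did not all differ in 1 direction. *Mcu*, the pore through which mitochondria take up calcium, measured 86.1 FPKM in GFP+ versus 166 in GFP-, a difference of -0.94. *Micu2*, which gates this pore, had 57.2 against 85.8 FPKM, a difference of -0.58. Both were below 0 as deposited and within 1 of the median over all genes, and *Micu2* was at 0.04 with one total. *Mcur1*, a regulator of the uniporter, was at 19.1 against 8.24 FPKM, and the gatekeeper *Micu3*, best known from neurons, at 1.78 against 0.257 FPKM. Their differences of 1.12 and 1.15 lay between the thresholds, and *Micu3* passed the filter through GFP+ alone, which fixed its sign.

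**Figure D2:**
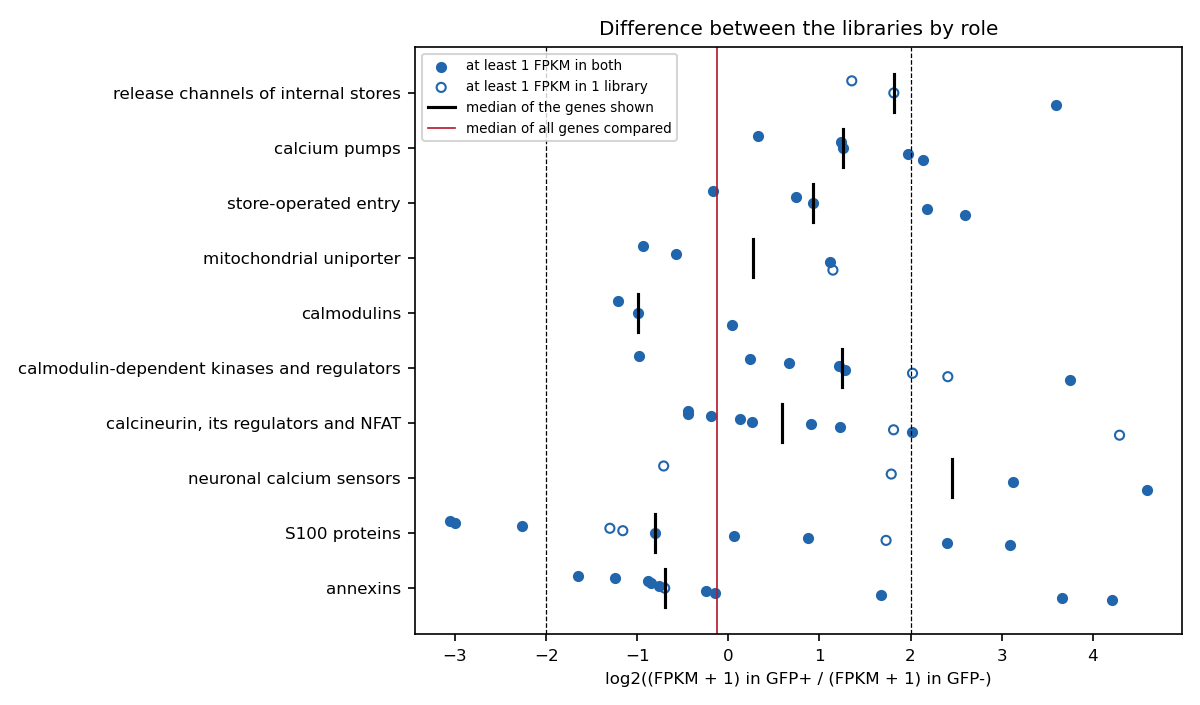
Log2 difference between the libraries for 64 of the 66 genes by role; filled points have at least 1 FPKM in both libraries, open points in 1 library only, black bars are medians of the genes shown, dashed lines mark the 4-fold size and the red line is the median over all genes compared. The pumps and the genes of store-operated entry have medians of 1.26 and 0.92, while the annexins have a median of -0.70.

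Calmodulin is encoded by several genes with the same protein product. *Calm2* stood at 391 FPKM in GFP+ versus 776 in GFP-, and *Calm3* at 81.5 against 79.4 FPKM. Neither passed the 4-fold size. The level of *Calm2* was 4.80 times that of *Calm3* in GFP+ and 9.77 times in GFP-. *Calml4*, a calmodulin-like protein of the brush border, the microvillus layer of absorptive cells, was at 123 against 285 FPKM, a difference of -1.21. Its listed locus spans 37131 bases and the annotated gene 17842, so its FPKM may take in other transcripts. The part of absorptive cells in the difference of *Calml4* was not tested. Beside this gene, the 7 enterocyte markers had a median difference of -0.97 but did not all differ in 1 direction. *Fabp1*, at 470 against 2157 FPKM, made up most of the gap between their sums, and *Fabp2* was also at least 4-fold lower. The brush border enzyme *Alpi* was at 113 against 222 FPKM and *Rbp2* at 105 against 231 FPKM. Another brush border enzyme, *Sis*, was at 183 against 85.5 FPKM, *Apoa4* at 241 against 223 FPKM and *Apoa1* at 420 against 431 FPKM. *Calm4*, *Calm5* and *Calml3* were listed at 0 in both libraries.

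Among the kinases that calmodulin switches on, *Camk2b* stood apart. This beta subunit of CaM kinase II, the form abundant in brain (chromosome 11, 5969666 to 6065748), measured 69.8 FPKM in GFP+ versus 4.26 in GFP-, 16.4 times as much, for a difference of 3.75. *Camk2d*, the delta subunit found in most tissues, was at 56.6 against 35.3 FPKM, a difference of 0.66. *Camk2b* thus went from 10.6% of CaM kinase II FPKM in GFP- to 55.0% in GFP+, and *Camk2d* from 87.6% to 44.6%. *Camk2g* was below 1 FPKM in both libraries, and the brain form *Camk2a* was at 0.0119 FPKM in GFP- and listed at 0 in GFP+. The genes of 2 small CaM kinase II inhibitors were also at least 4-fold higher. *Camk2n2* was at 7.28 against 0.558 FPKM and *Camk2n1* at 5.43 against 0.582 FPKM. Their differences of 2.41 and 2.02 missed the size with a pseudocount of 5, and both genes passed the filter through GFP+ alone. The listed locus of *Camk2n2* spans 34315 bases and the annotated gene 2073, so its FPKM may take in other transcripts.

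The remaining kinases differed by less than the 4-fold size. *Camk1d* was at 23.9 against 9.74 FPKM and *Camkk2*, which activates CaM kinase I and the energy sensor AMPK, at 4.79 against 1.39 FPKM, with differences of 1.21 and 1.28. Among the genes of this role that reached 1 FPKM, *Camk1* was the single one below 0, at 12.4 against 25.5 FPKM and -0.99. *Camkmt*, a methyltransferase of calmodulin that shares the prefix, was at 13.1 against 11.0 FPKM. *Camk1g*, *Camk2g*, *Camk4*, *Camkk1* and the pseudokinase *Camkv* stayed at 0.908 FPKM or less.

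The calcineurin subunits lay near 0, and 2 of 3 regulators were at least 4-fold higher, beside 7.09% of all genes compared. The catalytic subunit *Ppp3ca* stood at 26.6 FPKM in GFP+ versus 30.5 in GFP-, *Ppp3cb* at 3.82 against 3.43 FPKM, *Ppp3cc* at 2.78 against 2.15 FPKM, and the regulatory subunit *Ppp3r1* at 68.7 against 93.8 FPKM. Their differences ran from -0.44 to 0.26, and those of *Ppp3ca* and *Ppp3r1* turned above 0 under both other scalings. *Rcan2*, a calcineurin regulator of brain and other tissues (chromosome 17, 43801851 to 44039516), was at 21.6 against 0.150 FPKM. Its difference of 4.29 ranked 135 from the top among 11868 genes. *Rcan2* passed the filter through GFP+ alone, which fixed the sign, and its ratio of 144 rests on a low value in GFP-. *Rcan3* (in a row joined with *Mir700*) was at 16.9 against 3.41 FPKM, a difference of 2.02, and missed the size with a pseudocount of 5. *Rcan1*, a known target gene of the calcineurin pathway, was at 10.9 against 15.2 FPKM, a difference of -0.45 that was above 0 under both other scalings. In GFP- *Rcan1* held 81.1% of the summed FPKM of the 3 regulators, and in GFP+ it held 22.1%, with *Rcan2* at 43.7% and *Rcan3* at 34.2%.

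The NFAT genes encode the transcription factors that calcineurin sends to the nucleus. *Nfatc3* stood at 19.7 FPKM in GFP+ versus 10.0 in GFP-, *Nfatc1* at 11.4 against 4.29 FPKM and *Nfatc2* at 3.87 against 0.385 FPKM. Their differences were 0.91, 1.23 and 1.81, and *Nfatc2*, which passed the filter through GFP+ alone, passed the 4-fold size under both other scalings. *Nfatc4* was at 0.0105 FPKM in GFP- and listed at 0 in GFP+.

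**Figure D3:**
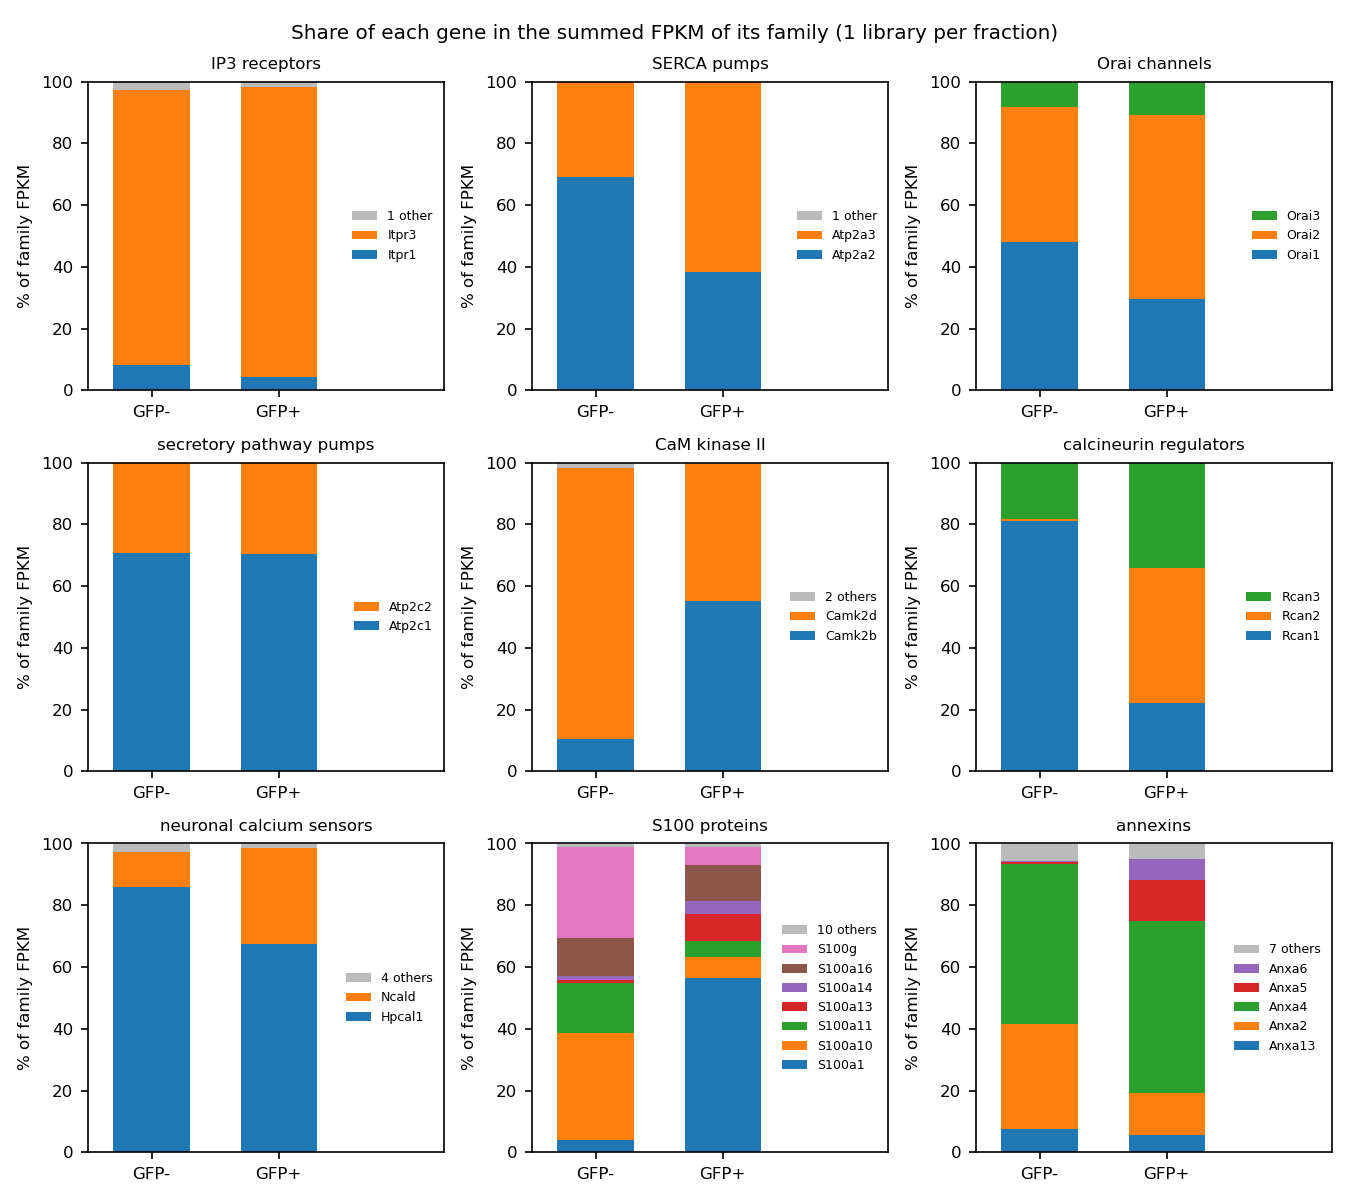
Share of each gene in the summed FPKM of its family, in percent, for the GFP- and the GFP+ library; genes under 4% in both libraries are joined in grey. The leading gene changes from *Atp2a2* to *Atp2a3*, from *Orai1* to *Orai2*, from *Camk2d* to *Camk2b*, from *Rcan1* to *Rcan2* and from *S100a10* to *S100a1*, and stays the same for the IP3 receptors, the secretory pathway pumps, the neuronal calcium sensors and the annexins.

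Neuronal calcium sensors are small EF-hand proteins that attach to membranes when calcium binds, and 2 of them led the role. *Ncald*, neurocalcin delta (chromosome 15, 37366175 to 37792428), measured 99.1 FPKM in GFP+ versus 3.14 in GFP-, 31.6 times as much. Its difference of 4.60 was the largest of all 105 genes and ranked 103 from the top among all genes compared. *Hpcal1*, hippocalcin-like 1 (chromosome 12, 17690814 to 17791926), was at 215 against 23.8 FPKM, a difference of 3.12. Both differed in the same direction, and *Hpcal1* was the more abundant in each library, with 67.5% of the summed FPKM of 6 related sensor genes in GFP+ and 86.1% in GFP-. *Hpca*, hippocalcin, was at 3.71 against 0.362 FPKM, with a wide upper bound of 22.6 FPKM in GFP+, and passed the size only under the other scalings and with a pseudocount of 0.1. It passed the filter through GFP+ alone, which fixed the sign. *Cabp1*, which binds calcium channels and IP3 receptors in neurons, was at 0.275 against 1.09 FPKM. Of the role's other 10 genes, *Necab2* was the highest at 0.848 FPKM in GFP+, followed by *Ncs1* at 0.529 FPKM in GFP+, and 4 genes of the Cabp series were listed at 0 in both libraries.

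The S100 genes, small EF-hand proteins that bind other proteins when loaded with calcium, split. Of 11 genes of at least 1 FPKM under this prefix, 2 were at least 4-fold higher and 3 at least 4-fold lower, or 18.2% and 27.3%, beside 7.09% and 4.59% of all genes compared. *S100a1*, which in heart muscle acts on calcium pumps and release channels, measured 376 FPKM in GFP+ versus 43.3 in GFP-, a difference of 3.09. *S100a13*, which takes part in the export of growth factors that lack a signal peptide, was at 57.7 against 10.2 FPKM, a difference of 2.40. *S100a10*, the partner of annexin A2, was at 44.5 against 376 FPKM, *S100g*, the calcium-binding protein of vitamin D-regulated calcium uptake in enterocytes, at 39.0 against 318 FPKM, and *S100a11* at 35.3 against 174 FPKM. These levels are 8.46, 8.16 and 4.92 times lower in GFP+, and *S100a11* went from a log2 difference of -2.27 to -1.78 and -1.66 under the other scalings, short of the size. The levels of *S100a1* in GFP+ and of *S100a10* in GFP- were alike as deposited. Within a library, the ratio of *S100a1* to *S100a10* was 8.45 in GFP+ and 0.115 in GFP-. *S100a1* held 56.5% of the summed S100 FPKM in GFP+ and 4.01% in GFP-.

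Limits apply to several S100 values. The listed locus of *S100g* spans 945365 bases and the annotated gene 2608, and its upper bounds of 425 and 1763 FPKM are wide, so its level is uncertain. The 3 lower genes are also expressed in absorptive cells, and the part of those cells in their differences was not tested. Of the 7 markers of these cells, 2 were at least 4-fold lower and 0 at least 4-fold higher, with a median difference of -0.97. *Sis* and *Apoa4* were above 0, at differences of 1.09 and 0.11. Markers of other epithelial lineages had median differences of -4.11 (Paneth), -1.26 (stem and dividing), -1.23 (tuft) and -0.22 (goblet). *S100a16* was at 76.5 against 134 FPKM, *S100a14* at 28.2 against 15.0 FPKM and *S100a6* at 6.16 against 5.87 FPKM. These 3 lay between the thresholds. *S100a5* was at 0.707 against 3.20 FPKM, and *S100z* at 1.23 FPKM in GFP- was listed at 0 in GFP+. *S100pbp*, which encodes a binding partner of an S100 protein and is no S100 gene itself, was at 5.10 against 0.837 FPKM. The inflammatory genes *S100a8* and *S100a9*, abundant in neutrophils, were listed at 0 in both libraries, and *S100b*, a marker of glia, was at 0.158 and 0.147 FPKM.

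The position of the S100 genes was not part of their choice. Of the 18 genes under the prefix, 14 lie on chromosome 3, 12 of them between 90511034 and 90695721, and *S100a11* and *S100a10* some way off, at 93520496 to 93526288 and 93555117 to 93564645. The 2 genes that were at least 4-fold higher are the first pair in this order, and the 2 lower genes of the chromosome are the last pair. *S100a1* lies on the minus strand and *S100a13* on the plus strand, with their RefSeq starts facing away from each other at 90514330 and 90514435. The 104 bases between the starts (chr3:90514331-90514434, GRCm38.p6, RefSeq, written on the plus strand, that of *S100a13*) are shown because both neighbours were higher in GFP+.
S100a1-S100a13 interval: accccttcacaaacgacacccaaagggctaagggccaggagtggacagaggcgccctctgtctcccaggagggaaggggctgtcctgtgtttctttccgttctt

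This interval is 58.7% G or C and holds 0 copies of the GC box, the TATA box, the E-box and the NFAT core on either strand. One GENCODE M21 transcript of *S100a1* starts inside it, so the distance between the starts depends on the gene model. The libraries are not stated to keep the strand, so reads near the joint start region cannot be assigned to one gene by strand. The level of *S100a1* was 6.51 times that of *S100a13* in GFP+ and 4.27 times in GFP-. The next genes in order, *S100a14* and *S100a16*, did not share the 4-fold size.

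**Figure D4:**
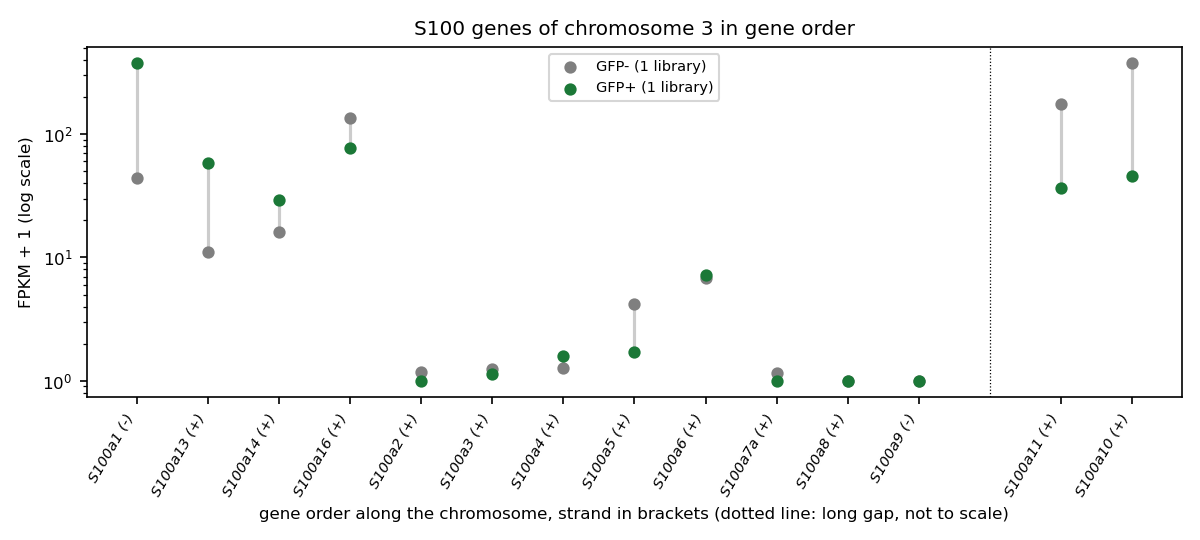
FPKM + 1 on a log axis for the 14 S100 genes of chromosome 3 in gene order, with the strand in brackets; grey points are GFP-, green points GFP+, and the dotted line marks a long gap that is not to scale. *S100a1* and *S100a13* at the left are higher in GFP+, *S100a11* and *S100a10* at the right are lower, and *S100a8* and *S100a9* lie at 0 FPKM in both.

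Annexins bind membrane phospholipids in the presence of calcium, and *Anxa5* and *Anxa6* set themselves apart from the rest. *Anxa6* (chromosome 11, 54978962 to 55033471) stood at 80.4 FPKM in GFP+ versus 3.40 in GFP-, and *Anxa5* (chromosome 3, 36448924 to 36475887) at 161 against 11.7 FPKM. Their differences of 4.21 and 3.67 passed the size under each scaling and pseudocount run. Both genes are also expressed in non-epithelial cells, whose 10 markers summed to 17.0 FPKM in GFP+ versus 0.967 in GFP-, most of it from *Pecam1*. *Anxa10*, known from gastric epithelium, was at 10.8 against 2.69 FPKM, a difference of 1.68 that passed the size under both other scalings.

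The other 8 annexins of at least 1 FPKM were below 0 as deposited, as were 6382 of the 11868 genes compared. *Anxa4*, an annexin of secretory epithelia, was the most abundant of the family in both libraries, at 667 against 790 FPKM. *Anxa2* was at 164 against 519 FPKM, a difference of -1.66, and so was lower together with *S100a10*, whose protein it binds, though by less: the ratio of *Anxa2* to *S100a10* was 3.69 in GFP+ and 1.38 in GFP-. *Anxa13*, an annexin of the intestinal epithelium, was at 67.8 against 116 FPKM. *Anxa7* was at 26.7 against 50.2 FPKM, *Anxa3* at 2.45 against 7.15 FPKM, *Anxa1* at 1.20 against 2.94 FPKM and *Anxa9* at 0.753 against 1.84 FPKM. *Anxa11* was at 19.8 against 22.1 FPKM, and its difference of -0.15, like that of *Anxa4* at -0.25, turned above 0 under both other scalings. The level of *Anxa5* was 0.978 times that of *Anxa2* in GFP+ and 0.0226 times in GFP-.

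The 39 genes that did not reach 1 FPKM in either library had at most 0.908 FPKM, and 11 of them were listed at 0 in both. They include both calbindins, *Calb1* at 0 in both libraries and *Calb2* at 0.0135 FPKM in GFP- and at 0 in GFP+, 10 of 14 neuronal calcium sensor genes, 7 of 18 genes under the S100 prefix, 6 of 14 under the Camk prefix, 4 of 9 pumps and all 3 ryanodine receptors. *Atp2b4* and *Atp2b2*, which are plasma membrane pumps, had 0.387 and 0.322 FPKM in GFP+, and 0.0221 and 0.00237 in GFP-.

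Other genes of calcium handling were read from a list apart from the 105. Of 92 such genes with an estimate, 56 reached 1 FPKM, 4 were at least 4-fold higher and 1 lower, and their median difference was -0.35. These counts are 7.14% and 1.79%, beside 7.09% and 4.59% of all genes compared, and *Fkbp1b* and *Pkd2*, both among the 4, passed the filter through GFP+ alone. *Asph*, whose locus also encodes the store proteins junctin and junctate, stood at 554 FPKM in GFP+ versus 44.2 in GFP-, and *Fkbp1b*, which binds ryanodine receptors, at 19.2 against 0.619 FPKM. *Rcn1*, a calcium-binding protein of the endoplasmic reticulum, was at 30.6 against 2.90 FPKM, and *Pkd2*, a cation channel of cilia and the endoplasmic reticulum, at 7.42 against 0.861 FPKM. *Sri* (sorcin), an EF-hand protein, was lower at 59.5 against 250 FPKM, but did not pass the size under either other scaling. *Ahcyl1*, whose product binds IP3 receptors, was at 262 against 84.0 FPKM and passed the size under both other scalings, at 2.13 and 2.24. Large calcium buffers of the store differed little as deposited. *Calr* was at 308 against 381 FPKM and *Canx* at 152 against 123 FPKM. *Hspa5* was at 497 against 397 FPKM and *Hsp90b1* at 354 against 254 FPKM. With the median ratio at 0 and with one total, the differences were 0.19 and 0.31 for *Calr* and 0.80 and 0.91 for *Canx*. They were 0.82 and 0.94 for *Hspa5* and 0.98 and 1.10 for *Hsp90b1*.

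**Figure D5:**
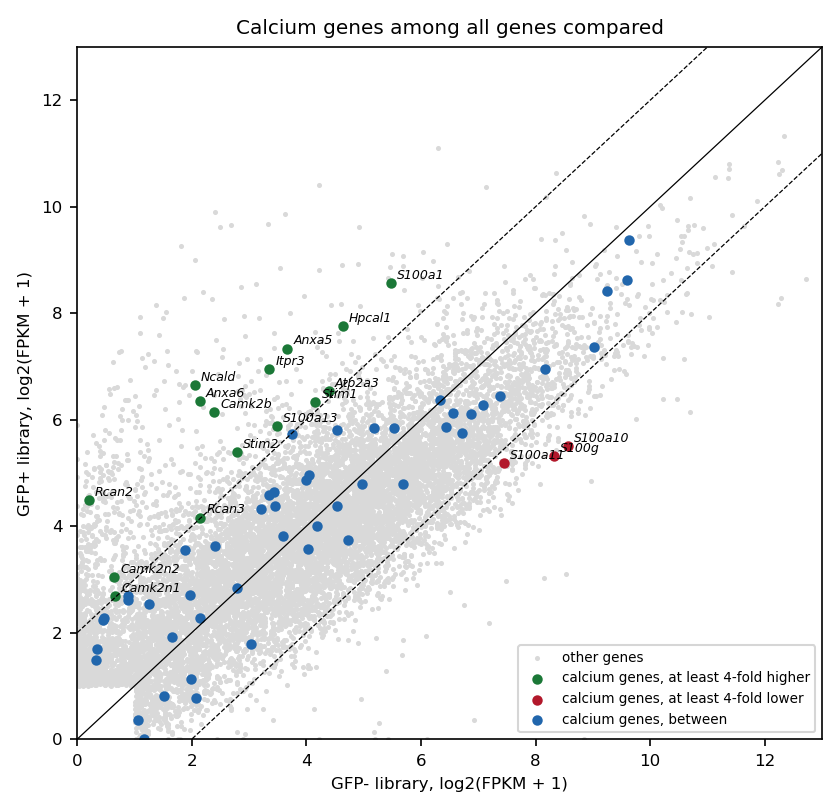
Log2(FPKM + 1) in the GFP+ library against that in the GFP- library for the 11868 genes compared (grey), with the 66 calcium genes in colour; the solid line marks equal values and the dashed lines the 4-fold size. The 15 named green genes lie above the upper dashed line, and *S100a10*, *S100g* and *S100a11* below the lower one.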

How the data were processed

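Polyadenylated RNA of 1 GFP+ and 1 GFP- fraction was amplified with a low-input kit, per the labels' protocols. The deposited values are FPKM with confidence bounds, per the file headers. The submitters' processing notes name mm10, FastQC, TopHat2 0.7, Cufflinks and Cuffdiff. The annotation, the scaling of libraries and the treatment of reads with several positions were not given in the sources used here. There are 23793 rows per file. The 5 rows that Cuffdiff could not estimate in GFP+ were left out, and FPKM was summed per symbol. Locus starts were shifted to count from 1. Total depth is not given; fragments were gauged from steps in low FPKM of single-transcript genes (GENCODE M21) and cover counting error only.

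Genes that reached 1 FPKM in either library entered the comparison, with a pseudocount of 1 (Python 3.11.15, pandas 2.3.3, NumPy 2.4.6), and the calculation was tested on simulated data. Members and lists were chosen with earlier results of these data known. Members of at least 1 FPKM may be named, and every one past the 4-fold size is; 2 members between the thresholds enter the counts and are not reported here. Other scalings set the median ratio of genes reaching 10 FPKM in each library to 0, or brought both libraries to their mean total. That total covers genes with an estimate in both libraries, so it leaves out *Chga* and *Chgb*. Of the members, 3 share a row with a microRNA gene. For 10 members the listed locus is over 1.5 times as long as the annotated gene, so their FPKM may take in other transcripts. Among them are *Camk2n2*, *S100g*, *Calml4*, *Camk1*, *Ppp3cb*, *Hpca* and *Anxa9*. Protein sequences were not used here.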

Additional observations from a re-analysis of the deposited data

How the results depend on the processing

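No paired analysis was possible because each fraction has 1 library and no test was made. The number of calcium genes at least 4-fold higher, 15 as reported, was 22 with a pseudocount of 0.1, 10 with 5, 21 under either other scaling and 29 with a size of 1 on the log2 scale; the number lower, 3, was 5 with a pseudocount of 0.1, 2 under either other scaling and 8 with a size of 1. Over all genes compared, 12.8% were higher and 6.82% lower with a pseudocount of 0.1, 2.97% and 2.65% with 5, and 20.1% and 23.1% with a size of 1. The median of 0.70 moved to 0.79 and 0.39 with pseudocounts of 0.1 and 5, to 0.014 without a filter, to 0.81 with at least 5 FPKM in the higher library or a mean of at least 1 FPKM, to 1.07 and 1.24 with the median ratio at 0 and with one total, to 0.50 without joined rows, and to 0.26 with at least 1 FPKM in both libraries, an alternative chosen after seeing the data. Of the other calcium handling genes, 4 higher and 1 lower as reported, 8 and 3 passed with a pseudocount of 0.1, 11 and 11 with a size of 1, 2 were higher with at least 1 FPKM in both, and 0 were lower with a pseudocount of 5 or under either other scaling. No gene past the size changed direction under these alternatives. Rows joined with a microRNA gene hold *Itpr3*, *Rcan3* and *Atp2b4*. Values near 1 FPKM of short transcripts rest on fewer fragments than those of long ones, about 29.5 in GFP- and 29.9 in GFP+ at 500 bases.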

Other observations

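The genes next to the S100 genes of chromosome 3 from *S100a1* to *S100a9* were read as well, but not those next to *S100a11* and *S100a10*. *Chtop*, which ends before *S100a1* and encodes a chromatin and RNA-export protein, measured 46.3 FPKM in GFP+ versus 35.8 in GFP-, a difference of 0.36. *Snapin*, a binding partner of the SNARE complex, was at 41.6 against 34.1 FPKM, and *Ilf2*, an RNA-binding protein whose listed locus is the same merged region, at 30.0 against 74.5 FPKM. *Npr1*, a natriuretic peptide receptor, was at 0.881 FPKM in GFP+ and *Pglyrp4*, which lies beyond *S100a9*, at 0.00801 FPKM. Both were listed at 0 in GFP-. None of these neighbours was at least 4-fold higher or lower on the log2(FPKM + 1) scale.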
